A study of Homo sapiens with 9 samples.

Results

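The genes described here are 50 members of the Wnt pathway, from the secreted ligands through their receptors and cytoplasmic transducers to the nuclear cofactors of β-catenin. They were taken by gene name from gene tables of 58233 gene IDs, and each name matched 1 ID. The cells were TC32, an established line of Ewing sarcoma, a tumour of bone and soft tissue in young people. Gene expression was measured by RNA sequencing of polyadenylated RNA in 9 libraries, 3 in each of 3 groups. The first group received Wnt3a for 28 h and SB-505124, an inhibitor of the TGF-β type I receptor kinase, for the last 24 h, and its libraries are called inhibitor libraries here. The second received Wnt3a for 28 h and the DMSO solvent in place of the inhibitor. The third, vehicle, received PBS in place of Wnt3a for 4 h and then DMSO for 24 h. The labels give 10% serum for all 9 libraries. No group received the inhibitor without Wnt3a, so every statement on the inhibitor holds for cells that also had Wnt3a. All libraries came from a single cell line, and nothing in the labels says whether replicates came from separate cultures. Each p-value is therefore set against the spread of these 9 libraries alone, and that spread may be technical.

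Wnt proteins are lipid-modified by PORCN, carried to the cell surface by WLS, and bind Frizzled receptors together with the co-receptors LRP5 or LRP6. In the absence of a ligand, a complex built on AXIN1 and APC holds the kinases GSK3 and casein kinase 1, which mark β-catenin (CTNNB1) for destruction. Dishevelled proteins (DVL) link the occupied receptor to that complex, and stabilised β-catenin then acts in the nucleus with TCF and LEF factors, BCL9 and PYGO proteins, while TLE proteins repress the same sites. Other Wnts, such as WNT5A, signal through ROR and RYK receptors without β-catenin.

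Promoter sequences are shown for 2 members that fell and 2 that rose with the inhibitor, to show what lies upstream of genes that moved in opposite directions. Each is the 250 bases before the RefSeq start site on GRCh38.p14, 5′ to 3′ on the strand of the gene, and none of them covers an exon of its own gene. Capitals mark the GC box, GGGCGG or its reverse complement CCGCCC. FZD4 lies at chr11:86955396-86955645 on the minus strand, LRP5 at chr11:68312341-68312590 on the plus strand, AXIN1 at chr16:352724-352973 on the minus strand and TCF7L1 at chr2:85133142-85133391 on the plus strand.
FZD4: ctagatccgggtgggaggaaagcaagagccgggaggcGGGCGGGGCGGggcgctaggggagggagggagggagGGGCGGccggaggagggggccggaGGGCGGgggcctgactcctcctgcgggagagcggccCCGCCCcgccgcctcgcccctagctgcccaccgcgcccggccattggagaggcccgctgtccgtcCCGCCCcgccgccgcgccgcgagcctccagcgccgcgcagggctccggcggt
LRP5: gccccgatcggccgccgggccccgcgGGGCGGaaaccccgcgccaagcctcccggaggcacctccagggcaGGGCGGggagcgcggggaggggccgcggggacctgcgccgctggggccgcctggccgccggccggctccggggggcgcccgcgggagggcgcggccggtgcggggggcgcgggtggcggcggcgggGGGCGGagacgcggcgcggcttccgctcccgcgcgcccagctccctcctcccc
AXIN1: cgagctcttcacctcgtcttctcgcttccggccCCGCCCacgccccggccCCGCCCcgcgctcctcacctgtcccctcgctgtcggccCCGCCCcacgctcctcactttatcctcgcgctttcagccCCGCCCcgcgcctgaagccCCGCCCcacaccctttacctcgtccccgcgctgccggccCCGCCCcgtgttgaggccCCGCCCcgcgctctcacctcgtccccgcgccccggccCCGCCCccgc
TCF7L1: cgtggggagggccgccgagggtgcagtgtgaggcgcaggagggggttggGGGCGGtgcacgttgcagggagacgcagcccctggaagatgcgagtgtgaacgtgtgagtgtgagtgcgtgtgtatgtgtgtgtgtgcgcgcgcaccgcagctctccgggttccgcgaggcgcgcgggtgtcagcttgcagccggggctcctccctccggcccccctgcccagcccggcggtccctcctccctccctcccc
The GC content was 80.8% for FZD4, 87.2% for LRP5, 77.6% for AXIN1 and 72% for TCF7L1, against a median of 58% over 35116 upstream windows of the same length. Counting matches that share a base, GC boxes numbered 6 at FZD4, 3 at LRP5, 8 at AXIN1 and 1 at TCF7L1. Promoter sequence was found for 40 of the 50 genes, with 55 start sites. On both strands, the GC box was present upstream of 36 of these 40 genes and in 38 of their 55 windows, against 42.6% of all windows. The TCF/LEF motif was searched in 3 spellings. The spelling CTTTGAT was in none of the 55 windows, against 2.26% of all windows. The spelling CTTTGAA was also in none of them, against 3.8% of all windows. The spelling CTTTGTT was in 2 of them, upstream of CSNK1E and TCF7L2, against 4.5% of all windows. The SMAD-binding letters CAGAC were in 20 of the 55 windows, upstream of 17 genes, against 38% of all windows. The 17 were APC2, CSNK1E, CTNNB1, DVL1, DVL2, FZD1, FZD9, GSK3B, PORCN, PYGO1, ROR2, RYK, TLE3, WLS, WNT2B, WNT3 and WNT5B. None of the 4 sequences shown holds any of the TCF/LEF spellings or the SMAD-binding letters on either strand. These 4 were picked without a rule and do not stand for the other members that moved. A match is a description of the letters, and a missing match says only that these letters are not in this window.

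Expected counts, in units of 1e6, totalled 28.8 to 37.5 in the inhibitor libraries, 36.9 to 43.0 with Wnt3a and 34.3 to 38.6 with vehicle. A principal component with 56.5% of the variance separated the 3 inhibitor libraries from the other 6, and on the next, with 14.7%, inhibitor replicate 1 lay at -66.9, far from inhibitor replicates 2 and 3 at 26.9 and 24.5. On the same component Wnt3a replicates 1 and 2 and vehicle replicate 2 lay at -30.7, -24.1 and -8.19, apart from Wnt3a replicate 3 at 24.9 and vehicle replicates 1 and 3 at 22.6 and 30.99. The 14 markers listed for Ewing sarcoma were all detected, with a summed level of 2010 to 2580 TPM in the inhibitor libraries, 2990 to 3540 with Wnt3a and 3250 to 3860 with vehicle. TPM is a level per transcript length, scaled to the sum of all transcripts of a library. The 10 fibroblast markers summed to 290 to 305 TPM with the inhibitor, 469 to 710 with Wnt3a and 391 to 591 with vehicle, and 2 of them stayed under 1 TPM in all libraries. Under 1 TPM in all libraries were 7 of 10 endothelial, 7 of 10 leukocyte and 8 of 10 epithelial markers, and their sums were at most 39.7, 14.8 and 4.21 TPM in any library. Of 5 nuclear-retained RNAs used as a sign of RNA quality, the sum was 85.9 to 196 TPM with the inhibitor, 158 to 354 with Wnt3a and 134 to 239 with vehicle, and 2 of them, KCNQ1OT1 and SNHG14, fell with the inhibitor against either group. The part of these shifts in the results below was not tested, and in bulk RNA fewer cells of a type cannot be told apart from less RNA per cell.

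Levels differed widely between the genes, and part of the list was barely detected. A mean of at least 1 TPM was reached by 32 of the 50 genes with the inhibitor, 38 with Wnt3a and 37 with vehicle, and of at least 10 TPM by 22, 26 and 24 of them. The casein kinase gene CSNK1E had the highest TPM in vehicle libraries. It averaged 109 ± 6.84 TPM with the inhibitor, 139.7 ± 11.2 with Wnt3a and 135 ± 2.84 with vehicle (SD, n = 3 each, as in all such values below). The lower TPM was not seen in counts, where CSNK1E averaged 170.7, 152.6 and 160.7 CPM in the same groups. Against Wnt3a the inhibitor group stood 0.16 higher on the log2 scale and did not pass (adjusted p = 0.164 by edgeR). TPM has no TMM factor and depends on length, and the effective length described below had a ratio of 1.12 there. The part of each in the lower TPM was not tested. CTNNB1 averaged 61.0 ± 8.88 TPM with the inhibitor, 112 ± 7.89 with Wnt3a and 101 ± 5.40 with vehicle.

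Among the 10 Wnt ligand genes of the list, WNT5A made up nearly all of the summed level. Its share of the summed TPM was 88.3 ± 4.45% with the inhibitor, 83.6 ± 4.86% with Wnt3a and 88.2 ± 1.94% with vehicle, and the sum itself was 10.4 ± 1.13, 24.8 ± 3.55 and 24.8 ± 0.493 TPM in the same 3 groups. These sums have no TMM factor. In CPM, WNT5A averaged 35.4 ± 2.72, 64.0 ± 11.8 and 72.8 ± 9.84 in the same groups. Among the receptor tyrosine kinase genes ROR1, ROR2 and RYK, RYK held 92.2 ± 0.391% of the summed TPM with the inhibitor, 90.9 ± 1.38% with Wnt3a and 93.2 ± 0.0906% with vehicle. DVL2 held 57.4 ± 1.12%, 55.3 ± 3% and 54.8 ± 1.67% of the summed Dishevelled TPM in inhibitor, Wnt3a and vehicle libraries.

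Low counts kept 6 members out of the tests, which leaves 44. WNT4, WNT6, WNT7B, FZD10, the TCF-family factor LEF1 and the TCF7L2-binding kinase TNIK had 0 to 11 counts in any library. LEF1, often a Wnt target in other cells, had 3, 6 and 5 counts in the inhibitor libraries, 1, 1 and 6 with Wnt3a, and 0, 1 and 1 with vehicle. The groups overlapped between inhibitor and Wnt3a, and no fold is given at these counts.

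The first question is whether the ligand alone moved the genes that make, receive and relay it. Of the 44 genes tested, 0 rose and 0 fell with Wnt3a against vehicle at an adjusted p of 0.05 (edgeR quasi-likelihood test, Benjamini-Hochberg over 17880 genes), where 0.419% of all genes tested passed, 0.397% upward and 0.0224% downward. At an unadjusted edgeR p of 0.05, 8 of the 44 passed, a larger share than the 7.62% of all genes. The members were chosen with earlier results of these data known, so nothing is read from that share. DESeq2 called 1 of them, ROR1, among 261 genes in all, and limma-voom 0 of them. The log2 fold changes ran between -0.72 and 0.81, with a median of 0.03 against 0.01 for all genes. The close relatives FZD7, TCF7 and AXIN2, which are not among the 50, did rise. FZD7 had 23.8, 29.4 and 28.0 CPM with Wnt3a, against 10.2, 13.2 and 12.7 CPM with vehicle, where CPM is a TMM-scaled count relative to the depth of the library. Its log2 fold change was 1.17 ± 0.14 (SE), with an adjusted p of 0.00629. The TCF gene TCF7 rose by 1.996 ± 0.327 on the log2 scale (adjusted p = 0.0327), and the destruction complex gene AXIN2 by 2.61 ± 0.157 (adjusted p = 0.000119), both by edgeR.

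The 6 members with the smallest p in that comparison were ROR1, KREMEN1, FZD4, TLE1, APC and RYK. ROR1, a receptor for WNT5A, had 14.4, 19.0 and 17.1 CPM with Wnt3a, against 9.70, 10.9 and 11.5 CPM with vehicle. The groups did not overlap, and the log2 fold change was 0.66 ± 0.137, with an adjusted p of 0.101 by edgeR and 0.00337 by DESeq2, while over all alternatives it lay between 0.00337 and 0.44. KREMEN1, a receptor for the Dickkopf antagonists, had 34.4, 43.2 and 40.7 CPM with Wnt3a, against 26.5, 29.7 and 28.2 CPM with vehicle, also without overlap (log2 fold change 0.49 ± 0.137, edgeR adjusted p = 0.283). FZD4 had 92.7, 80.4 and 82.8 CPM with Wnt3a, against 139.9, 124 and 157 CPM with vehicle. All 3 Wnt3a libraries lay below all vehicle libraries, with a log2 fold change of -0.72 ± 0.231. The adjusted p by edgeR was 0.394 with all libraries and 0.0145 without inhibitor replicate 1. That library is in neither group and enters through the shared gene filter, scaling and estimate of spread. The adjusted p was 0.0443 when only the 2 groups were fitted, 0.012 when all genes with at least 1 count were tested, and up to 0.907 over all alternatives. The co-repressor gene TLE1, APC and RYK had log2 fold changes of 0.55 ± 0.177, 0.37 ± 0.119 and 0.27 ± 0.107, with adjusted p of 0.396, 0.407 and 0.569 by edgeR. In each of these 3 the Wnt3a libraries lay above all vehicle libraries.

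Adding the inhibitor to Wnt3a moved members in both directions. Of the 44 genes tested, 9 rose and 12 fell against Wnt3a alone, which is 47.7%, while 50.4% of all genes tested passed, 24.5% upward and 25.9% downward. The share among the members was thus close to the background. The median log2 fold change was -0.06, the same to 2 decimals as the -0.06 of all genes. Of the 7 ligands 5 fell and 0 rose, and of the 15 receptors 4 fell and 0 rose. FZD6, a receptor with a log2 fold change of 0.44 here (edgeR adjusted p = 0.0601), was called with DESeq2, with all genes of at least 1 count, and without vehicle replicate 2 or inhibitor replicate 3. Both secretion genes rose, and 6 of 12 transducers rose while 1 fell. Of the 8 nuclear factors tested, 1 rose and 2 fell. Without inhibitor replicate 1 there were 10 rises and 11 falls. The 8 largest rises and 8 largest falls described below were picked among called members whose libraries did not overlap. For these the lack of overlap was fixed by that rule and adds nothing to the test. The share of all genes without overlap was not computed.

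**Figure D1:**
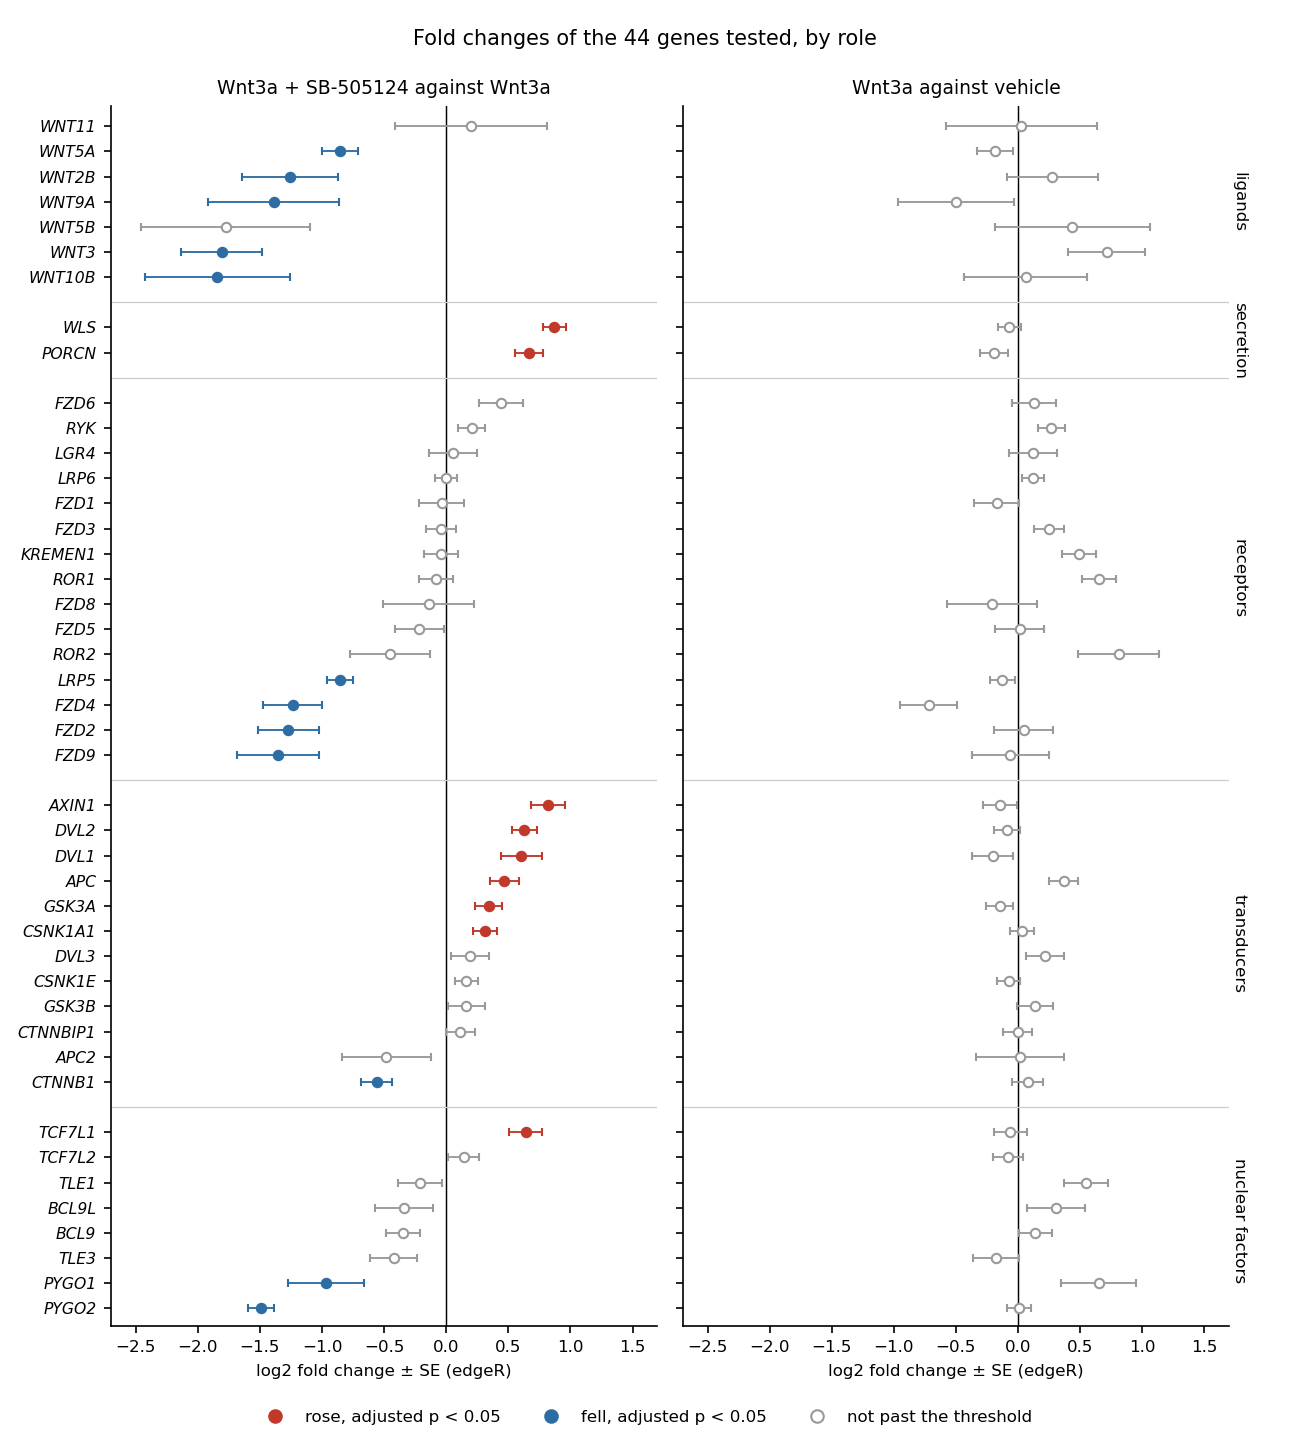
Log2 fold change with its standard error for the 44 genes tested, grouped by role down the page, with the inhibitor against Wnt3a on the left and Wnt3a against vehicle on the right. On the left 9 genes pass upward (red) and 12 downward (blue), with 5 ligands and 4 receptors among those 12, and on the right all 44 are open grey points between -0.72 and 0.81.

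Whether the weaker rises passed depends on the scaling. TMM factors were 0.876 to 0.914 in the inhibitor libraries and 1.02 to 1.10 in the others. With library totals alone, the median log2 fold change of all genes moved by -0.249 in this comparison, and the genes called split into 2828 higher and 6425 lower, against 4379 and 4634 with TMM. On that scale 4 members rose and 18 fell, and WLS, PORCN, AXIN1 and DVL2 were the 4 that still rose. With limma-trend on log2(TPM + 1), which also has no TMM factor, 4 members rose.

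All 5 ligands that passed are rare transcripts apart from WNT5A. WNT5A, a Wnt that signals mainly without β-catenin, had 33.4, 34.2 and 38.5 CPM in the inhibitor libraries, against 53.5, 61.8 and 76.8 CPM with Wnt3a. The groups did not overlap, and it fell by 0.86 ± 0.148 on the log2 scale, 1.81-fold lower (edgeR adjusted p = 0.000963). WNT3, a ligand of the β-catenin branch, had 1.86, 0.882 and 1.12 CPM with the inhibitor, against 4.87, 5.51 and 3.10 CPM with Wnt3a, from 113 and 575 counts in all. It was 3.5-fold lower (log2 fold change -1.81 ± 0.324, adjusted p = 0.00117 by edgeR). Wnt3a replicate 3 was the lowest of its group, as for FZD2 below, and still above all inhibitor libraries.

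WNT10B, WNT9A and WNT2B also fell, at levels near the limit of detection. WNT10B had 0.0380, 0.152 and 0.0639 CPM with the inhibitor, against 0.355, 0.335 and 0.273 CPM with Wnt3a, and its log2 fold change was -1.84 ± 0.581 (edgeR adjusted p = 0.0231). Its adjusted p was 0.0609 to 0.0837 without any of Wnt3a replicates 1 and 2 and inhibitor replicates 1 and 3. Nor did WNT10B pass with DESeq2 (adjusted p = 0.0628) or with all genes of at least 1 count (edgeR adjusted p = 0.066). WNT9A had 0.190, 0.213 and 0.128 CPM with the inhibitor, against 0.228, 0.536 and 0.637 CPM with Wnt3a (log2 fold change -1.39 ± 0.526, edgeR adjusted p = 0.0487). WNT9A passed narrowly: its adjusted p was 0.055 to 0.151 without any single library other than Wnt3a replicate 1. Nor did it pass with DESeq2 (adjusted p = 0.0864) or limma-voom (adjusted p = 0.0984). The same held with RLE, all genes of at least 1 count, a length offset, a replicate block and both TPM scales. WNT2B had 0.645, 0.243 and 0.607 CPM with the inhibitor, against 1.27, 1.25 and 1.05 CPM with Wnt3a (log2 fold change -1.26 ± 0.386, edgeR adjusted p = 0.0206), and 0.0555 to 0.0582 without Wnt3a replicate 1 or 2 or inhibitor replicate 2. On log2(TPM + 1) it did not pass (limma adjusted p = 0.0782). WNT2B shares 2661 exonic bases with ST7L on the opposite strand, and ST7L had a log2 fold change of -0.00 ± 0.125. WNT5B and WNT11 did not pass, with log2 fold changes of -1.78 ± 0.683 and 0.20 ± 0.613.

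Both genes of Wnt secretion rose. WLS had 160.3, 164 and 142 CPM in the inhibitor libraries, against 90.3, 80.9 and 83.7 CPM with Wnt3a. The groups stood far apart, 1.83-fold, with a log2 fold change of 0.87 ± 0.0928 and an adjusted p of 5.48e-05 by edgeR. PORCN had 14.6, 14.9 and 15.1 CPM with the inhibitor, against 8.92, 9.78 and 9.47 CPM with Wnt3a (1.58-fold higher, log2 fold change 0.66 ± 0.114, edgeR adjusted p = 0.000899). The spread within each group of PORCN was small beside the difference. WLS and PORCN passed in the same direction under all 21 alternatives in this comparison. WLS shares 111 exonic bases with the antisense gene GNG12-AS1.

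**Figure D2:**
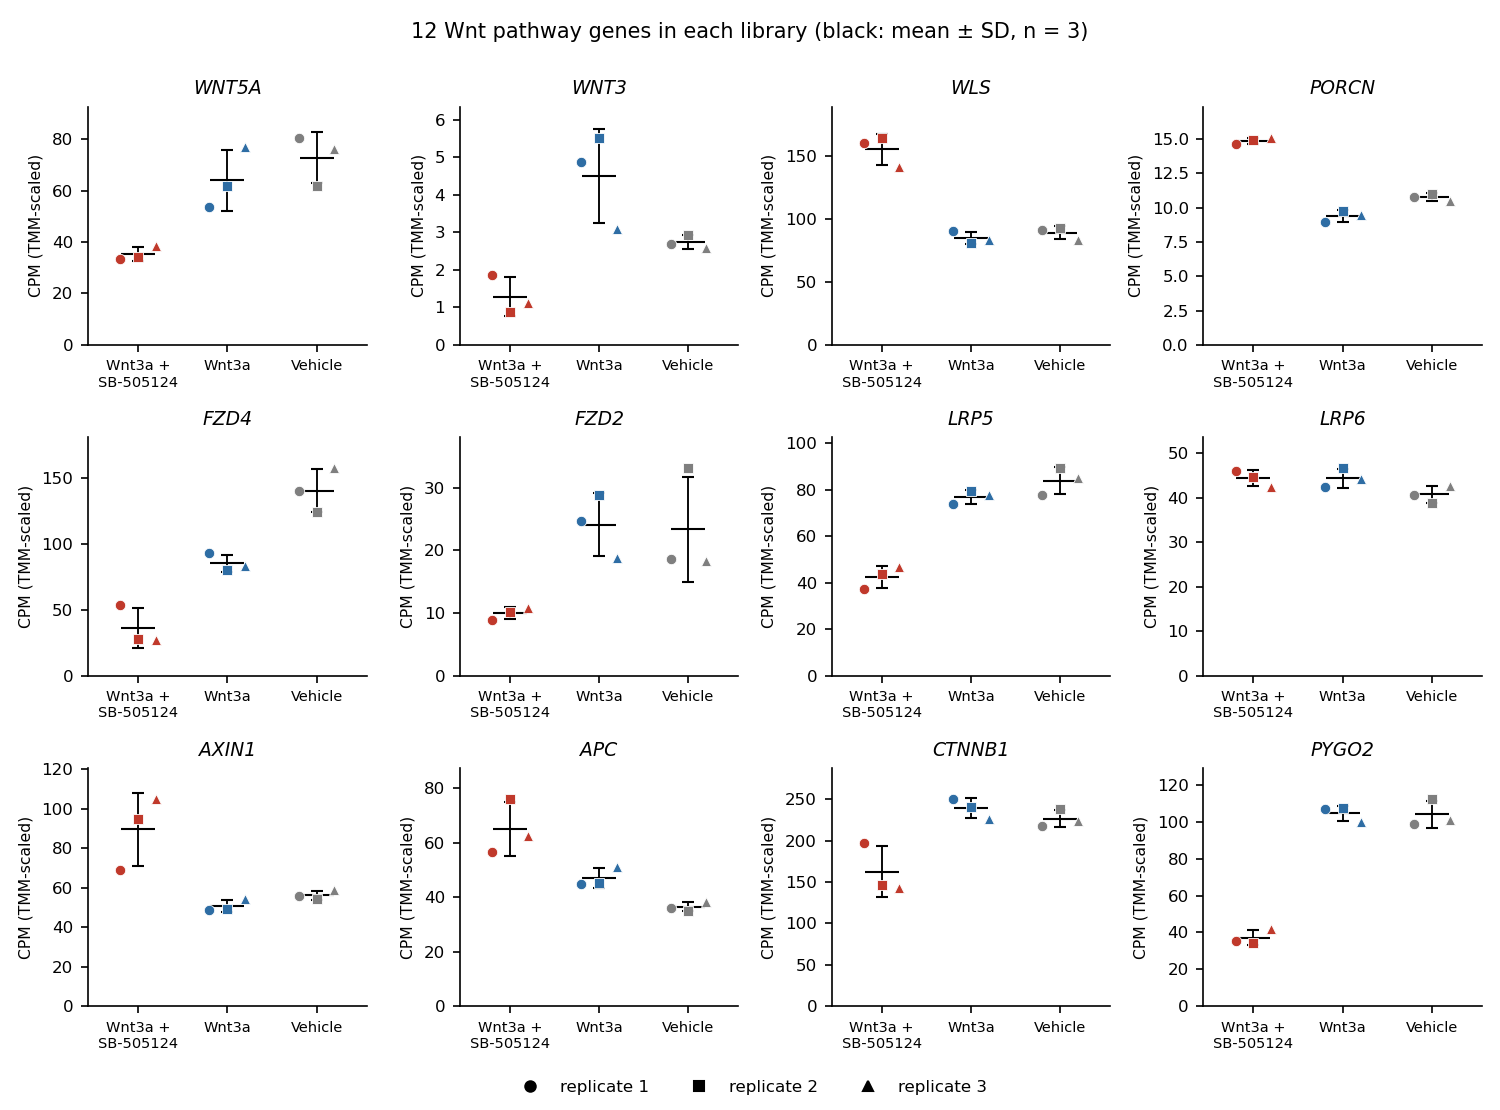
TMM-scaled CPM of 12 pathway genes in each library, with the inhibitor group left, Wnt3a in the middle and vehicle right; symbols mark the replicate number and black lines the mean ± SD (n = 3). WLS and PORCN lie higher and WNT5A, FZD4, LRP5 and PYGO2 lower in all inhibitor libraries than in the other 6, while LRP6 overlaps across the groups.

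The Frizzled genes that passed were FZD2, FZD4 and FZD9, and each fell. FZD4 had 53.9, 27.9 and 27.0 CPM in the inhibitor libraries, against 92.7, 80.4 and 82.8 CPM with Wnt3a. Inhibitor replicate 1 was nearly double the others of its group and still below all Wnt3a libraries, and FZD4 was 2.36-fold lower (log2 fold change -1.24 ± 0.236, edgeR adjusted p = 0.00169). FZD4 shares 1399 exonic bases with PRSS23 on the opposite strand, and PRSS23 had a log2 fold change of -0.14 ± 0.295 here and 1.08 ± 0.299 for Wnt3a against vehicle. FZD2 had 8.92, 10.2 and 10.8 CPM with the inhibitor, against 24.7, 28.8 and 18.9 CPM with Wnt3a (2.41-fold lower, log2 fold change -1.27 ± 0.244, edgeR adjusted p = 0.00177). The Wnt3a libraries were widely spread, and none reached down to the inhibitor group. FZD9 had 0.569, 0.912 and 0.543 CPM with the inhibitor, against 1.29, 1.76 and 2.16 CPM with Wnt3a (log2 fold change -1.36 ± 0.329, edgeR adjusted p = 0.0064).

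The most abundant Frizzled gene, FZD1, did not pass. It had 124, 166 and 181 CPM with the inhibitor, against 129.7, 154 and 200.2 CPM with Wnt3a, and these ranges overlap nearly entirely (log2 fold change -0.04 ± 0.181). The mix of Frizzled transcripts therefore differed between groups. Summed over the 9 Frizzled members and FZD7, the level was 69.1 ± 1.74 TPM with the inhibitor, 106 ± 6.32 with Wnt3a and 107 ± 5.61 with vehicle. TPM has no TMM factor, and the part of this scaling in the lower sum was not tested. FZD1 averaged 27.0 TPM with the inhibitor and 35.3 with Wnt3a, but 157.3 and 161.3 CPM. FZD6 averaged 15.1 and 15.4 TPM in these 2 groups, but 37.9 and 28.0 CPM. FZD4 held 8.47 ± 3.5% of that sum with the inhibitor, 16.8 ± 2.16% with Wnt3a and 25.7 ± 2.04% with vehicle. FZD6 held 21.9 ± 5.62%, 14.7 ± 2.11% and 12.6 ± 1.24% in inhibitor, Wnt3a and vehicle libraries, and FZD7 held 13.5 ± 1.19%, 10.2 ± 0.733% and 4.25 ± 0.606%. These shares are descriptions with no test of their own.

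**Figure D3:**
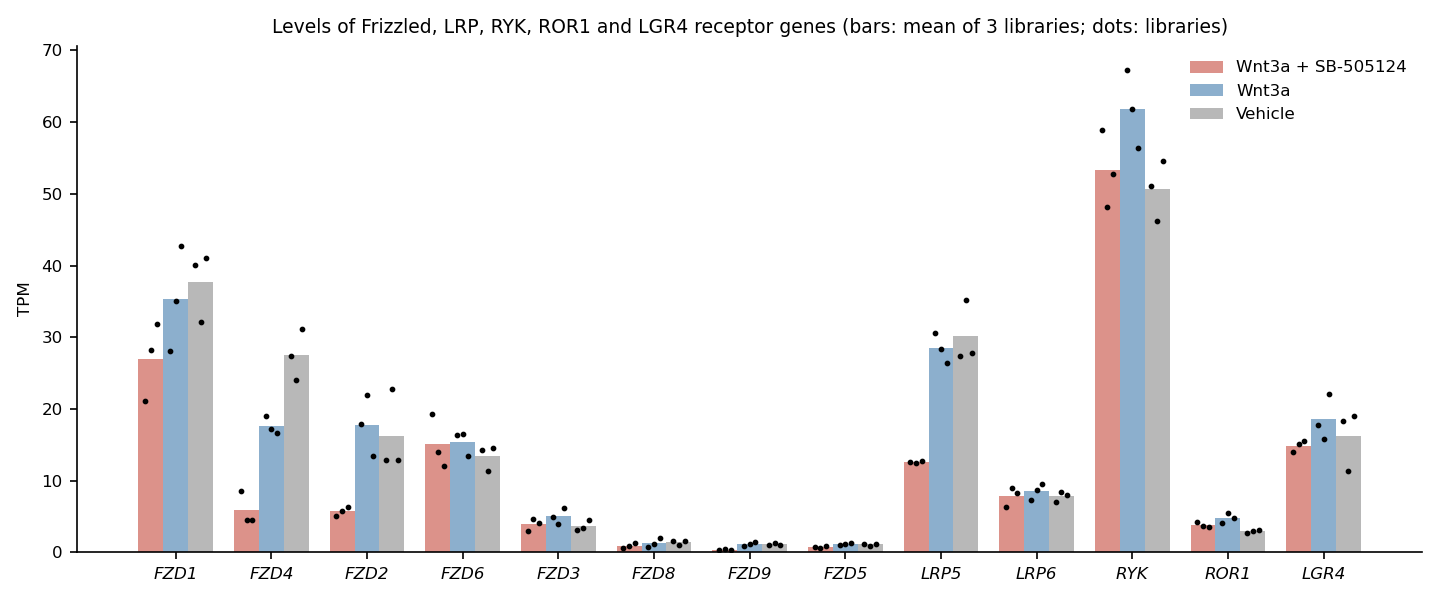
TPM of 13 receptor genes, with bars for the mean of 3 libraries and dots for the libraries, in the order inhibitor, Wnt3a, vehicle for each gene. FZD4, FZD2 and LRP5 have inhibitor bars below both others, with means of 5.85, 5.75 and 12.6 TPM, while RYK is the highest in all 3 groups.

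Of the co-receptors, LRP5 fell and LRP6 did not pass. LRP5 had 37.1, 43.9 and 46.6 CPM in the inhibitor libraries, against 73.7, 79.6 and 77.7 CPM with Wnt3a, which is 1.81-fold lower (log2 fold change -0.86 ± 0.104, edgeR adjusted p = 0.000117). LRP6 had 46.0, 44.7 and 42.4 CPM with the inhibitor, against 42.3, 46.6 and 44.3 CPM with Wnt3a. These ranges overlap, and the log2 fold change was -0.00 ± 0.0872 (edgeR adjusted p = 0.989), though relative to library totals alone it was -0.25 (adjusted p = 0.0388). Within each library, the log2 ratio of LRP5 to LRP6 counts was -0.07 ± 0.226 with the inhibitor and 0.79 ± 0.0194 with Wnt3a. The difference of -0.86 had p = 0.1 in a 2-sided exact permutation test, the smallest that 3 against 3 allows, and 0.18 after adjustment over the 18 ratio tests made, whose pairs were chosen after the values were seen. In TPM, LRP5 held 61.8 ± 4.26% of the pair with the inhibitor, 76.9 ± 3.69% with Wnt3a and 79.3 ± 1.61% with vehicle. The other receptors that did not pass were LGR4, ROR1, ROR2, RYK, KREMEN1 and 4 Frizzled genes, FZD3, FZD5, FZD6 and FZD8, and they had log2 fold changes between -0.45 and 0.44.

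In the destruction complex AXIN1 and APC rose and β-catenin's own transcript fell, while APC2 did not pass. AXIN1 had 69.1, 94.6 and 105 CPM in the inhibitor libraries, against 48.6, 49.4 and 54.2 CPM with Wnt3a. Inhibitor replicate 1 was the lowest of its group and still above all Wnt3a libraries, and AXIN1 was 1.76-fold higher (log2 fold change 0.82 ± 0.139, edgeR adjusted p = 0.000862). APC had 56.5, 76.0 and 62.4 CPM with the inhibitor, against 44.8, 45.1 and 51.1 CPM with Wnt3a (log2 fold change 0.47 ± 0.119, edgeR adjusted p = 0.00827). With library totals alone APC did not pass, at 0.22 (adjusted p = 0.108), nor did it on log2(TPM + 1), at 0.12 (limma adjusted p = 0.567). Its paralog APC2 had 0.797, 1.19 and 1.21 CPM with the inhibitor, against 0.912, 1.34 and 2.23 CPM with Wnt3a, with overlap (log2 fold change -0.48 ± 0.359, edgeR adjusted p = 0.285). CTNNB1 had 198, 147 and 142 CPM with the inhibitor, against 250.2, 241 and 226 CPM with Wnt3a. All inhibitor libraries lay below all Wnt3a libraries, 1.47-fold in the fit (log2 fold change -0.56 ± 0.125, edgeR adjusted p = 0.00416). AXIN1 and CTNNB1 passed in the same direction under all 21 alternatives in this comparison.

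The kinases of the complex moved little at the level of counts. GSK3A had 98.2, 113 and 127 CPM with the inhibitor, against 84.5, 87.6 and 95.0 CPM with Wnt3a (1.27-fold, log2 fold change 0.34 ± 0.108, edgeR adjusted p = 0.0235). CSNK1A1, the casein kinase that primes β-catenin, had 186, 212 and 207 CPM with the inhibitor, against 159, 152 and 178 CPM with Wnt3a (1.24-fold, log2 fold change 0.31 ± 0.0973, edgeR adjusted p = 0.023), while in TPM its sign was turned, at -0.03. Neither passed when Wnt3a replicate 1 or 2 or inhibitor replicate 2 or 3 was left out, with adjusted p of 0.0572 to 0.0957 for GSK3A and 0.0688 to 0.0879 for CSNK1A1. GSK3A shares 479 and CSNK1A1 2886 exonic bases with another annotated gene on the same strand. GSK3B had 62.5, 93.0 and 86.6 CPM with the inhibitor, against 70.3, 69.5 and 76.7 CPM with Wnt3a, so inhibitor replicate 1 lay below the Wnt3a group and the others above it. Its log2 fold change was 0.16 ± 0.147 (edgeR adjusted p = 0.382), -0.09 with library totals alone, and 0.32 (adjusted p = 0.0336) without inhibitor replicate 1.

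Of the Dishevelled genes, DVL1 and DVL2 rose and DVL3 did not pass. DVL2 had 159, 199 and 197 CPM with the inhibitor, against 113, 121 and 125 CPM with Wnt3a (1.55-fold, log2 fold change 0.63 ± 0.102, edgeR adjusted p = 0.000648). DVL1 had 45.4, 66.7 and 69.8 CPM with the inhibitor, against 35.7, 45.3 and 38.7 CPM with Wnt3a (1.52-fold, log2 fold change 0.60 ± 0.163, edgeR adjusted p = 0.0111). In DVL1, inhibitor replicate 1 barely exceeded the highest Wnt3a library. DVL3 had 121, 111 and 107 CPM with the inhibitor, against 101, 112 and 83.0 CPM with Wnt3a, with overlap (log2 fold change 0.19 ± 0.154, edgeR adjusted p = 0.321, and -0.06 with library totals alone). The rises of DVL1 and of DVL2 both failed to pass on log2(TPM + 1), and DVL1 also with library totals alone.

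Among the nuclear factors, PYGO2 gave the smallest p of all members. PYGO2 reads methylated histone H3 and binds BCL9, which in turn binds β-catenin. It had 35.3, 34.5 and 41.8 CPM in the inhibitor libraries, against 107, 107 and 99.8 CPM with Wnt3a. The groups were far apart, 2.81-fold lower with the inhibitor (log2 fold change -1.49 ± 0.102, edgeR adjusted p = 5.2e-06). The gene lies at chr1:154957026-154963853 on the minus strand of GRCh38 and shares 335 exonic bases with SHC1 on the same strand and 149 with AL451085.2 on the opposite strand. SHC1 fell by 0.38 ± 0.127 on the log2 scale (edgeR adjusted p = 0.0296). PYGO1, the paralog, had 5.05, 2.43 and 2.88 CPM with the inhibitor, against 6.77, 8.59 and 4.80 CPM with Wnt3a, so inhibitor replicate 1 lay above Wnt3a replicate 3. It was called all the same (log2 fold change -0.97 ± 0.305, edgeR adjusted p = 0.0233), but had adjusted p of 0.0564 to 0.0963 without Wnt3a replicate 1 or 2 or inhibitor replicate 2 or 3. PYGO1 was named after its values were seen.

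TCF7L1, which mostly acts as a repressor among the TCF factors, rose. It had 68.9, 54.5 and 64.4 CPM with the inhibitor, against 43.3, 43.1 and 34.2 CPM with Wnt3a, without overlap (1.56-fold, log2 fold change 0.64 ± 0.135, edgeR adjusted p = 0.00303). It did not pass with library totals alone or in TPM, where it remained higher. TCF7L2 had 18.7, 18.0 and 21.0 CPM with the inhibitor, against 15.8, 18.4 and 18.2 CPM with Wnt3a, and these overlap (log2 fold change 0.14 ± 0.122, edgeR adjusted p = 0.362, and -0.11 with library totals alone). BCL9, BCL9L, TLE1 and TLE3 did not pass, with log2 fold changes of -0.35 ± 0.137, -0.34 ± 0.232, -0.21 ± 0.177 and -0.42 ± 0.189. BCL9L shares 3925 exonic bases with CXCR5 on the opposite strand.

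Effective length is a second readout of these genes, which were taken by name but with earlier results of these data known. This length is the mean transcript length of a gene, weighted by the abundance of its transcripts as RSEM estimates it. It is reduced by a median of 49.9 bases here, and it moves when the mix of transcripts moves. GSK3B had effective lengths of 2537, 2764 and 3155 bases in the inhibitor libraries, against 5604, 5971 and 5247 bases with Wnt3a. The groups did not overlap, and the ratio was 0.501 (log2 difference -0.996 ± 0.0936, limma adjusted p = 0.00558). GENCODE release 29 lists protein-coding GSK3B transcripts of 1636, 1957 and 7711 bases, though the gene's ID in the tables has an older version than in that release. With lengths so much lower at similar counts, GSK3B was higher per length, at 28.9, 39.5 and 33.3 TPM with the inhibitor, against 18.8, 18.3 and 21.6 TPM with Wnt3a. With an offset for effective length, GSK3B rose by 1.14 on the log2 scale (edgeR adjusted p = 0.000192).

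Of the 44 members, 2 were shorter and 1 longer with the inhibitor than with Wnt3a, where 2.72% of all genes passed. The co-repressor TLE3 had 2107, 2410 and 2396 bases with the inhibitor, against 2928, 3298 and 3032 bases with Wnt3a (ratio 0.746, limma adjusted p = 0.0403). The casein kinase CSNK1E had 1932, 1807 and 1818 bases with the inhibitor, against 1645, 1650 and 1675 bases with Wnt3a (ratio 1.12, limma adjusted p = 0.037). CSNK1E shares 1316 exonic bases with the readthrough gene TPTEP2-CSNK1E on the same strand. TLE3 had adjusted p of 0.0614 to 0.119 when any single library was left out, and CSNK1E of 0.0602 to 0.126 except without inhibitor replicate 1, where it was 0.0181. GSK3B passed in each of these fits, at 0.0109 to 0.0283. Against vehicle, GSK3B and TLE3 were shorter with the inhibitor, with ratios of 0.551 and 0.673 and adjusted p of 0.0088 and 0.0159 by limma, where 2.66% of all genes passed. Without vehicle replicate 2 or 3, TLE3 had 0.0633 and 0.0517 there. Between Wnt3a and vehicle 0 members passed by limma, where 0% of all genes did. At an unadjusted p of 0.05, 0 of the 44 members and 3.08% of all genes passed, and no other tool was run on lengths.

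**Figure D4:**
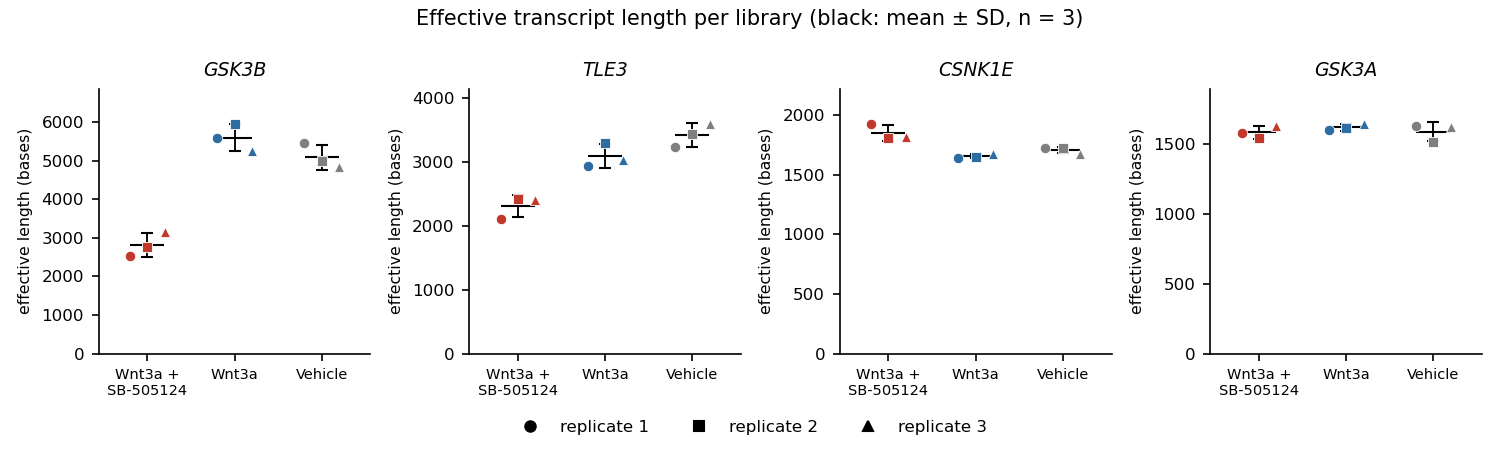
Effective length in bases per library for GSK3B, TLE3, CSNK1E and, as a gene that did not pass, GSK3A, with the inhibitor group left, Wnt3a in the middle and vehicle right; black lines give the mean ± SD (n = 3). GSK3B lies at 2537 to 3155 bases in the inhibitor libraries and at 4831 bases or more in the other 6.

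The third comparison sets Wnt3a with the inhibitor against vehicle, cells that had neither. It shares its inhibitor libraries with the comparison above. Of the 44 genes, 12 rose and 11 fell, which is 52.3%, while 49.7% of all genes tested passed, 25% upward and 24.8% downward. By role, 0 ligands rose and 4 fell, both secretion genes rose, 4 receptors rose and 4 fell, 5 transducers rose and 1 fell, and 1 nuclear factor rose and 2 fell. With library totals alone, where the median of all genes moved by -0.227 and the genes called split into 3061 higher and 6036 lower against 4462 and 4433 with TMM, 4 members rose and 14 fell. On log2(TPM + 1) the members that rose were 3, namely WLS, APC and GSK3B.

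FZD4 had the largest fall of this comparison. It had 53.9, 27.9 and 27.0 CPM with the inhibitor, against 139.9, 124 and 157 CPM with vehicle, which is 3.88-fold lower (log2 fold change -1.96 ± 0.24, edgeR adjusted p = 0.00012). With Wnt3a alone FZD4 had an intermediate level in every library. WNT9A, WNT10B and WNT3 fell by 1.89 ± 0.523, 1.78 ± 0.585 and 1.10 ± 0.323 on the log2 scale (edgeR adjusted p = 0.0126, 0.0279 and 0.0171). PYGO2, FZD9, FZD2, WNT5A, LRP5 and CTNNB1 fell as well, by 1.48 ± 0.102, 1.42 ± 0.329, 1.23 ± 0.244, 1.04 ± 0.149, 0.98 ± 0.105 and 0.48 ± 0.125, with edgeR adjusted p between 4.88e-06 and 0.00919. Of the nuclear co-repressors, TLE3 had 44.8, 66.1 and 80.1 CPM with the inhibitor, against 92.4, 98.4 and 99.1 CPM with vehicle (log2 fold change -0.60 ± 0.189, edgeR adjusted p = 0.0231). With an offset for effective length, which was shorter for TLE3 here, the log2 fold change was -0.04 (edgeR adjusted p = 0.84). On log2(TPM + 1) TLE3 did not pass either, at -0.34 (limma adjusted p = 0.12).

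APC had the largest rise, with 56.5, 76.0 and 62.4 CPM with the inhibitor, against 36.1, 34.99 and 38.3 CPM with vehicle (1.78-fold, log2 fold change 0.83 ± 0.12, edgeR adjusted p = 0.000305). WLS, AXIN1, TCF7L1, DVL2 and PORCN rose by 0.80 ± 0.0927, 0.67 ± 0.139, 0.58 ± 0.135, 0.54 ± 0.102 and 0.47 ± 0.114. ROR1 rose by 0.57 ± 0.137, RYK by 0.47 ± 0.107 and KREMEN1 by 0.45 ± 0.137 (edgeR adjusted p = 0.00615, 0.00448 and 0.0208). RYK, a receptor with an inactive kinase domain, had 114, 90.7 and 89.5 CPM with the inhibitor, against 73.8, 66.2 and 71.7 CPM with vehicle. FZD6 had 48.4, 35.3 and 30.1 CPM with the inhibitor, against 28.5, 21.3 and 27.1 CPM with vehicle, with inhibitor replicate 1 well above its group (log2 fold change 0.57 ± 0.176, edgeR adjusted p = 0.0222). DVL3 and CSNK1A1 rose by 0.41 ± 0.155 and 0.34 ± 0.0973 (edgeR adjusted p = 0.0478 and 0.0142). Of these, ROR1, RYK, KREMEN1, FZD6, DVL3, CSNK1A1, TCF7L1 and PORCN did not pass with library totals alone, although each kept a positive value.

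Several of these calls lie near the threshold and were lost when a library was left out, with folds that kept their direction. DVL3 had adjusted p of 0.0661 to 0.164 without vehicle replicate 1 or 3, Wnt3a replicate 1, or any inhibitor replicate, with log2 fold changes of 0.31 to 0.46 (0.41 with all libraries). WNT10B had 0.0791 to 0.0946 without vehicle replicate 2 or 3 or inhibitor replicate 1 or 3, and WNT3 had 0.0592 to 0.0638 without inhibitor replicate 2 or 3. KREMEN1 had 0.0508 to 0.0703 without vehicle replicate 1 or 3 or inhibitor replicate 1, TLE3 had 0.0535 to 0.063 without vehicle replicate 2 or 3 or inhibitor replicate 2 at log2 fold changes of -0.62 to -0.58, and FZD6 had 0.0605 to 0.0764 without vehicle replicate 2 or inhibitor replicate 1. WNT9A had 0.0508 without inhibitor replicate 3, and CSNK1A1 had 0.053 without inhibitor replicate 2. All these values are edgeR adjusted p. WNT10B also did not pass against vehicle with DESeq2 (adjusted p = 0.0746) or with all genes of at least 1 count (edgeR adjusted p = 0.0829).

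The rest of the pathway, from lists that hold no member, gave the following counts for the inhibitor against Wnt3a, where 50.4% of all genes tested passed, 24.5% upward and 25.9% downward. The share called was 60% of transducers, 50% of receptors, 33.3% of ligands, 78.6% of planar polarity genes, 50% of nuclear factors and 41.7% of antagonists, and nothing particular to a list is read from these shares. Of 30 further transducers tested, 13 rose and 5 fell. FBXW11, a β-catenin ubiquitin ligase subunit, had 116, 152 and 137 CPM with the inhibitor, against 68.7, 64.6 and 72.4 CPM with Wnt3a (log2 fold change 0.98 ± 0.11, edgeR adjusted p = 7.14e-05), and the GSK3-binding FRAT1 fell by 1.71 ± 0.286 (edgeR adjusted p = 0.000786). Of 12 further receptors and surface proteins 0 rose and 6 fell, the Dickkopf receptor gene KREMEN2 by 2.26 ± 0.543 (edgeR adjusted p = 0.00623). Of 3 further ligands 1 rose, the R-spondin gene RSPO3, with 36.2, 45.6 and 42.5 CPM in the inhibitor libraries, against 7.37, 5.38 and 25.3 CPM with Wnt3a (log2 fold change 1.71 ± 0.547, edgeR adjusted p = 0.0248). Of 14 planar polarity genes 7 rose and 4 fell, with PRICKLE2 highest at 1.99 ± 0.219 (edgeR adjusted p = 6.5e-05) and CELSR1 lowest at -1.53 ± 0.363 (edgeR adjusted p = 0.00572). Of 18 further nuclear factors 4 rose and 5 fell, and of 12 secreted or surface antagonists 1 rose and 4 fell. The median log2 fold changes of these lists were 0.19 for transducers, -0.42 for receptors, 0.62 for ligands, 0.15 for planar polarity, 0.05 for nuclear factors and -0.04 for antagonists, against -0.06 for all genes. For Wnt3a against vehicle, where 0.419% of all genes passed, the same lists held 1 receptor (FZD7), 3 transducers (NKD1, AXIN2 and NKD2), 1 nuclear factor (TCF7) and 1 antagonist (WIF1) that rose, and none that fell.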

How the data were processed

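RNA sequencing of polyadenylated RNA (a stranded kit, per the labels' protocols) was available for 9 TC32 libraries. The submitters' processing notes name the aligner STAR 2.5.2a, the quantifier RSEM 1.2.31, Trimmomatic 0.36, CASAVA 1.8.2 and the hg38 build. Annotation release and strand setting: not given in the sources used here, so overlapping genes cannot be told apart. Per the file headers, the authors deposited an expected count, TPM, FPKM, length and effective length per gene. The deposited FPKM was not used. The 45 repeated IDs of pseudoautosomal genes were added to their partners.

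Expected counts were rounded, filtered with filterByExpr (17880 genes), scaled with TMM and fitted in 1 model of 3 groups (edgeR 4.0.16 quasi-likelihood, R 4.3.3, Benjamini-Hochberg over all genes, threshold 0.05). The SE is the log2 fold change over the square root of F. Log2 effective length was tested with limma 3.58.1. The scripts were tested on simulated data. Counting precision is limited by depth, and no molecular identifiers are described in the labels.

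Members and lists were chosen with earlier results of these data known. Members given by library were the 6 smallest p for Wnt3a, the 8 largest rises and falls without overlap for the inhibitor against Wnt3a, up to 3 and 3 more against vehicle, and a panel of 14. Coordinates and overlaps are from GENCODE 29 (46 of 50 IDs in the same version), promoters from RefSeq. Alternatives were RLE (as in DESeq2 1.42.0) or library totals, other count filters, DESeq2, limma-voom, unrounded counts, log2(TPM + 1) and log2(TPM + 0.1), a length offset, only 2 groups, a replicate block, stricter thresholds, and leaving out each library.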

Additional observations from a re-analysis of the deposited data

How the results depend on the processing

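Of the fold changes given with a test, 54 were recomputed under 21 alternatives, all of them for members. This gave 1132 values, of which 19 changed sign, 9 newly passed and 115 no longer passed. Genes that are not members, such as FZD7 and RSPO3, were not among the 54. Nor was APC2, or FZD6 for the inhibitor against Wnt3a. All sign changes were for the inhibitor against Wnt3a, the only comparison in which members that did not pass and lay near 0 were recomputed. For Wnt3a against vehicle only the members with the smallest p were recomputed, and for the inhibitor against vehicle only members that passed. Whether members near 0 change sign in those comparisons was therefore not tested. The sign changes were in members near 0 or, for CSNK1A1, on the TPM scale. CSNK1A1 had -0.0279 with log2(TPM + 1) and -0.0281 with log2(TPM + 0.1). TCF7L2 had -0.110 with library totals alone, -0.391 and -0.428 on the 2 TPM scales and -0.0782 with a length offset. LRP6 had 0.0163 with RLE, 0.00153 with at least 10 counts in 3 libraries, 0.0191 with DESeq2, 0.228 with a length offset and -0.0341 to 0.0352 when a library was left out. GSK3B had -0.0901 with library totals alone, and DVL3 had -0.0617 there and -0.0868 and -0.0888 on the TPM scales.

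For Wnt3a against vehicle, members rising numbered 1 with DESeq2, and members falling 1 with all genes of at least 1 count, 1 with only the 2 groups, and 0 to 1 when a library was left out. All genes called numbered 75 in the main test, 259 with at least 1 count, 261 with DESeq2, 30 at an adjusted p of 0.01 and 20 to 140 when a library was left out. For the inhibitor against Wnt3a, 9 members rose in the main test, 4 with library totals alone and 4 on each TPM scale, and against vehicle 12 in the main test, 4 with library totals alone, 3 on each TPM scale and 3 with a fold of at least 1.5. Members falling against vehicle numbered 11, and 7 at an adjusted p of 0.01. Members called for effective length numbered 3 against Wnt3a and 2 against vehicle, and when a library was left out 1 to 3 and 1 to 3. The cause of these differences was not tested, apart from the smaller groups and stricter thresholds by construction.

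The labels do not say whether replicate numbers pair the libraries, and the correlations do not decide it, because their ranges overlap. Same-numbered libraries of different groups correlated at -0.182 to 0.416 in their deviations from the group means, and other pairs at -0.453 to 0.306. For replicates 1, 2 and 3 the same-numbered values were 0.0146, 0.416 and 0.353 between vehicle and Wnt3a. Between vehicle and inhibitor they were -0.0329, -0.182 and 0.0819, and between Wnt3a and inhibitor 0.325, -0.165 and 0.205. With a replicate block, 24 members were called for the inhibitor against Wnt3a, 24 against vehicle and 0 for Wnt3a against vehicle, and 1 member for effective length against vehicle, where GSK3B no longer passed (limma adjusted p = 0.0603). For effective length against Wnt3a, CSNK1E did not pass under the block (limma adjusted p = 0.093), and among counts FZD6, TLE3, BCL9 and WNT5B were added and WNT9A was lost. Depth limits the rare ligands: WNT10B, WNT9A and WNT2B had 8 to 152 counts a group.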
